A study of Mus musculus with 2 samples.

Results

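Named pseudogenes are genes whose mouse symbol ends in -ps, with or without a number, after the symbol of the functional gene they resemble. They were taken by that suffix from the gene names of both libraries' transcript tables, and the functional gene named before the suffix is called the parent here. The annotation held 1556 such genes, and 181 of them (11.6%) had at least 1 read, among 16945 of 55536 annotated genes with a read. The rule uses the name only, so that it also took 6 genes with reads that the annotation types as protein-coding and 4 that it types as long non-coding RNA.

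Adrenal gland RNA was measured by long-read sequencing, where 1 read stands for 1 RNA molecule, so that counts need no division by length. Both libraries came from 36-day-old female mice of the strain B6CASTF1/J, a cross of C57BL/6J with CAST/EiJ, with no treatment named. The reads had been aligned to mm10, a build of the C57BL/6J genome. The labels number the libraries as biological replicates 1 and 2 and give a starting quantity, 1 µg, for replicate 1 alone. A donor field holds the same entry for both libraries while a sample description numbers the animals differently, so the spread given here is that of these 2 libraries and may be technical.

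A processed pseudogene is a copy of a spliced messenger RNA that was written back into the genome, and it lacks the introns and usually the promoter of its parent. An unprocessed pseudogene arose by duplication of the gene itself and keeps the exon and intron structure, while a unitary one is the former gene itself, without an intact copy elsewhere. Short, highly transcribed genes of the germ line, such as those of ribosomal proteins, have left many processed copies in mammalian genomes, and a recent copy can be almost identical to the parent's coding sequence. Reads of near-identical copies were placed by the authors' alignment, and no source used here says how ties were settled, so the split of reads between a copy and its parent is uncertain throughout.

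How close the copies are can be seen in their sequences. The first pair below shows the first 120 coding bases of Rpl10-ps3, the copy with the largest ratio to its parent, and of Rpl10, a protein of the large ribosomal subunit. Capitals mark the bases on either side of the joins between the parent's exons, which the copy carries without an intron, and no base differs over the 120. In the next 3 pairs capitals mark the bases that differ, over coding bases 415 to 504 of Ftl1, which encodes the light chain of the iron store ferritin, 301 to 390 of Rps19, a protein of the small ribosomal subunit, and 313 to 432 of Rpl21, a protein of the large subunit. In the last pair, Cyp21a2-ps is set against coding bases 173 to 322 of Cyp21a1, the steroid 21-hydroxylase of the adrenal cortex. Capitals there mark 1 differing base and the 90 bases that the annotated model of Cyp21a2-ps lacks, which are the whole second exon of Cyp21a1. Sequences are from GENCODE M21 transcripts on mm10, 5′ to 3′ on the strand of the gene, and the spans of parents include introns.
Rpl10-ps3 (chr9:50344822-50344941, minus strand): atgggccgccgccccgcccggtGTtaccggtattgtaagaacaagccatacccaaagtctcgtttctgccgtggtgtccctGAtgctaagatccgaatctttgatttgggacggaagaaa
Rpl10 (chrX:74271002-74271837, plus strand): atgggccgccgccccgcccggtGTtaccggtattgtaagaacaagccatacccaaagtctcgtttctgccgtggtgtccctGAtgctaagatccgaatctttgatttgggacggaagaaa
Ftl1-ps1 (chr13:74407018-74407107, plus strand): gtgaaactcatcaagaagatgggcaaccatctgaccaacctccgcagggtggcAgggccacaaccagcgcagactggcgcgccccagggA
Ftl1 (chr7:45458155-45458244, minus strand): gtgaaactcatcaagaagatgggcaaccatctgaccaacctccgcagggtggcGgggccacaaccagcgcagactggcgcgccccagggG
Rps19-ps6 (chr12:110898414-110898503, plus strand): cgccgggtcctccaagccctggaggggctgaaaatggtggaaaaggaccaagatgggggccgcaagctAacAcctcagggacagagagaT
Rps19 (chr7:24888410-24888940, plus strand): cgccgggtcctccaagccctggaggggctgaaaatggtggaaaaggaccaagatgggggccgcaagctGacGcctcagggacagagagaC
Rpl21-ps15 (chrX:151215218-151215337, minus strand): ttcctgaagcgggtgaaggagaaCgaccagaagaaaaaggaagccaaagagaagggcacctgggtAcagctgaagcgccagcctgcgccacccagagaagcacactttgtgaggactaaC
Rpl21 (chr5:146835634-146835902, plus strand): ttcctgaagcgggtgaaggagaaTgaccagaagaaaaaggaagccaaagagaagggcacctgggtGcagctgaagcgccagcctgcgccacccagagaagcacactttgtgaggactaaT
Cyp21a2-ps (chr17:34721725-34722080, minus strand): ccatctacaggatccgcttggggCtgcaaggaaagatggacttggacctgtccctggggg
Cyp21a1 (chr17:34803662-34804227, minus strand): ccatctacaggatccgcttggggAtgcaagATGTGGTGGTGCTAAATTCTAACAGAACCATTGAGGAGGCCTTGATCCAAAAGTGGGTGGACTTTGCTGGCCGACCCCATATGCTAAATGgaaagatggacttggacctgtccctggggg

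Of the 181 named pseudogenes with reads, 168 were read in replicate 1 and 126 in replicate 2, and 113 (62.4%) in both. Among all annotated genes with reads 75.3% were found in both, and among the 574 other genes typed as pseudogene 44.4%. Annotated genes took 1144572 reads in replicate 1 and 414588 in replicate 2, a 2.76-fold difference in depth, and a count of 0, taken as up to 3 reads, allowed 2.62 and 7.24 reads per 1000000 reads of annotated genes (CPM). Whether a copy was found in both libraries followed its reads. None of the 38 named pseudogenes with 1 read in total could be in both, and 14 of 38 with 2 to 4 reads, 19 of 23 with 5 to 9, 43 of 45 with 10 to 49 and 37 of 37 with at least 50 were. From 2 to 4 reads upward these shares were 36.8%, 82.6%, 95.6% and 100%. In the same bins 49.7%, 83.5%, 97.9% and 99.9% of all annotated genes were in both. Of the 181 copies, 55 were read in replicate 1 only and 13 in replicate 2 only, beside 3267 and 918 of 16945 annotated genes.

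The named pseudogenes held 9194 reads of replicate 1 and 3396 of replicate 2. That is 0.803% of annotated-gene reads (Wilson interval at 95%, 0.787% to 0.820%) and 0.819% (0.792% to 0.847%). The mean share was 0.811% ± 0.0112 (SD, n = 2), and the intervals of the libraries overlap. Intervals and floors cover counting error only. Other genes typed as pseudogene, most of which carry a number in place of a parent's name, held 1.36% in replicate 1 and 1.59% in replicate 2. The reads were concentrated in few copies. The 12 highest held 63.9% of the copies' reads in replicate 1 and 62.9% in replicate 2, and Ftl1-ps1 alone held 22.8% and 16.2%.

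**Figure D1:**
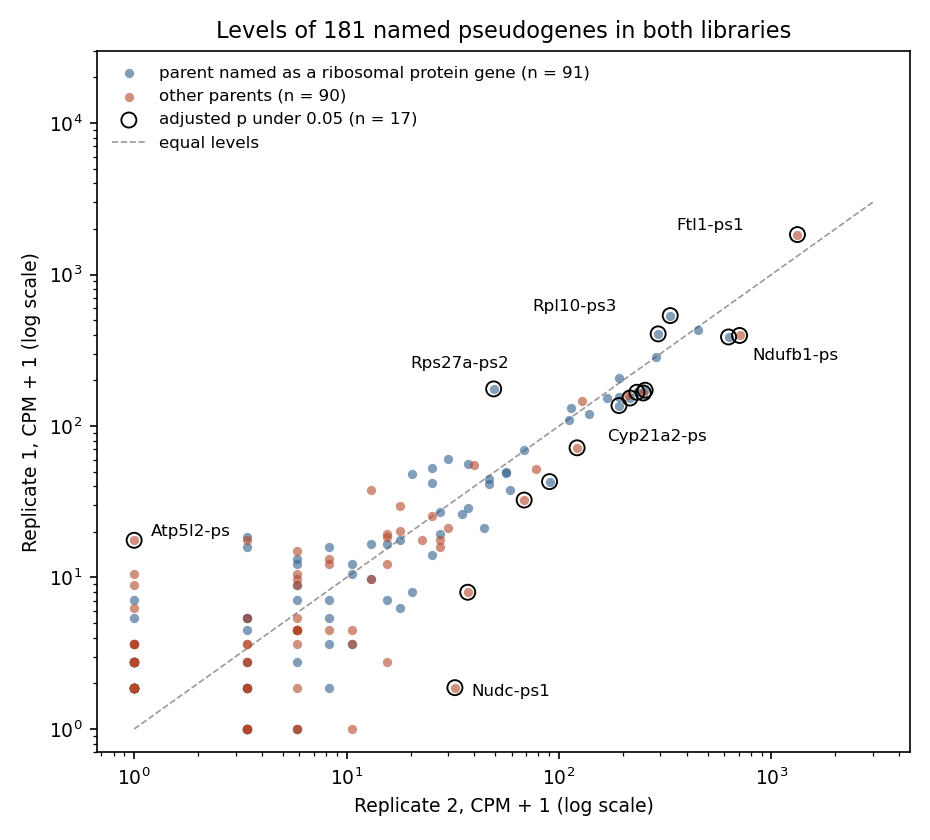
Level of each of the 181 named pseudogenes, as CPM + 1 on log axes, in replicate 1 (vertical) against replicate 2 (horizontal), with copies of ribosomal protein genes in blue, other copies in red and the 17 copies past the test between the libraries circled. Ftl1-ps1 lies highest in both libraries, and points spread most where a copy has few reads.

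Most copies with reads were those of ribosomal protein genes. Of 303 annotated copies of such genes 91 had reads (30.0%), and they held 58.2% of the copies' reads in replicate 1 and 58.8% in replicate 2. Rps19-ps6 had 442 reads in replicate 1 and 260 in replicate 2, 507 ± 170 CPM. Rpl3-ps1, a copy of a protein of the large subunit, had 493 and 187 reads, 441 ± 14.4 CPM. Their levels in the libraries differ for Rps19-ps6 and lie close for Rpl3-ps1. Rpl10-ps3 had 612 and 138 reads (434 ± 143 CPM), Rps2-ps13, a copy of a small-subunit protein gene, 463 and 121 reads (348 ± 79.7 CPM), and Rpl21-ps15 324 and 118 reads (284 ± 1.09 CPM). Rpl31-ps8, Rps13-ps1 and Rpl15-ps3, also copies of ribosomal protein genes, lay between 199 and 212 CPM.

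Outside the ribosome the reads fell on single copies. Ftl1-ps1 (ENSMUSG00000062382.9) had 2099 reads in replicate 1 and 549 in replicate 2, 1579 ± 360 CPM (SD, n = 2), and is the most read named pseudogene in both libraries. It is typed as protein-coding in the annotation, with up to 4 exons, and lies on chromosome 13 from 74399694 to 74407346. The iron and redox copies as a group had 3 of 12 with reads and 23.0% and 16.2% of the copies' reads, nearly all of them those of Ftl1-ps1. The name patterns of this group do not take in Gpx genes, so Gpx4-ps2, with 81 and 50 reads, is not counted in it. Ndufb1-ps (ENSMUSG00000113902.1), named for a subunit of respiratory complex I, had 452 and 293 reads, 551 ± 220 CPM. It was 1 of 3 with reads among 11 named pseudogenes of the respiratory family. It is typed as a non-coding RNA from a bidirectional promoter and lies opposite Cpsf2 on chromosome 12 from 101968090 to 101977068. The RefSeq table used here lists the same gene as Ndufb1, protein-coding. No parent of that name is annotated, and the sequence search found no similar protein-coding gene. Ndufb1-ps is thus counted among the copies by name alone. Mpc1-ps, a copy of a subunit of the mitochondrial pyruvate carrier, had 188 and 103 reads, 206 ± 59.5 CPM.

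Other copies were read less. Eif4a-ps4, a copy of a helicase of translation initiation, had 167 and 53 reads, and was the highest of 6 copies with reads among 31 of translation factors and chaperones. Cbx3-ps7, a copy of a heterochromatin protein gene, had 62 and 16 reads, the highest of 6 with reads among 40 chromatin and RNA-binding copies. Copies of glycolytic enzymes had reads for 2 of 10, Gapdh-ps15 with 2 and 6 reads and Pgam1-ps2 with 3 and 0, those of cytoskeletal genes for 1 of 6 and those of ubiquitin and proteasome genes for 2 of 9. Sensory and immune receptor pseudogenes, the largest family in the annotation, had reads for 2 of 545, H2-Ea-ps with 4 and 2 reads and Olfr1372-ps1 with 1 and 0. Secreted and xenobiotic clusters had reads for 4 of 125. Most of their reads, 181 of 202 in replicate 1 and 87 of 99 in replicate 2, were those of Cyp21a2-ps (184 ± 36.6 CPM). Cyp21a2-ps falls in this family by the Cyp in its name alone, while the gene closest to it is the steroid 21-hydroxylase Cyp21a1. In bulk tissue, fewer cells of a type and less RNA per cell cannot be told apart.

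By annotated type, processed pseudogenes had reads for 134 of 650 and unprocessed ones for 11 of 659, while those annotated as transcribed had reads for 7 of 32 processed and 14 of 81 unprocessed. By place, 101 of 1212 copies outside any other gene had reads (8.33%). Reads were found for 24 of 113 within the span of a gene on the same strand (21.2%) and for 34 of 146 within one on the opposite strand (23.3%). Of copies that overlap an exon of another gene, 7 of 48 on the same strand (14.6%) and 15 of 37 on the opposite strand (40.5%) had reads, with Ndufb1-ps and Cyp21a2-ps among the last. The 7 read copies that overlap an exon on the same strand held 2282 reads in replicate 1 and 640 in replicate 2. Ftl1-ps1 is among them and had 2099 and 549 of these reads. Rps19-ps6 is one of the copies inside a gene on the same strand, in Tecpr2, which itself had 3 reads in replicate 1 and 2 in replicate 2. The part of host genes in the counts of the other copies was not tested.

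Of the 1556 annotated copies, 10 lie on the Y chromosome, and both libraries are labelled female. Gapdh-ps15, a copy of a glycolytic enzyme gene on the Y chromosome from 38619783 to 38620784, had 2 reads in replicate 1 and 6 in replicate 2. It was 1 of 2 genes with a read among 1570 annotated there, and Ddx3y, Eif2s3y, Kdm5d and Uty, the widely expressed genes of the mouse Y chromosome, had 0 reads in both libraries. Gapdh, the parent, had 28 and 9 reads, and the coding sequences are 99.5% identical.

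Reads of the named pseudogenes had few splice junctions. Models of 1 exon took 92.0% of them in replicate 1 (Wilson, 91.4% to 92.5%) and 87.9% (86.8% to 89.0%) in replicate 2. For protein-coding genes outside the named pseudogenes these shares were 10.8% and 16.9%, and for other genes typed as pseudogene 97.3% and 97.7%. The intervals of the copies lie far above those of protein-coding genes in both libraries, and those of the libraries do not overlap each other. Most of the spliced reads were those of Ndufb1-ps and Cyp21a2-ps, with 446 and 181 of 738 in replicate 1 and 293 and 74 of 410 in replicate 2. Of the 147 copies annotated with 1 exon, 10 had any read with more. Ftl1-ps1, annotated with up to 4 exons, had 2097 of its 2099 reads in 1-exon models in replicate 1 and 548 of 549 in replicate 2, whereas 35 of 2226 and 19 of 708 reads of Ftl1 were in 1-exon models.

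**Figure D2:**
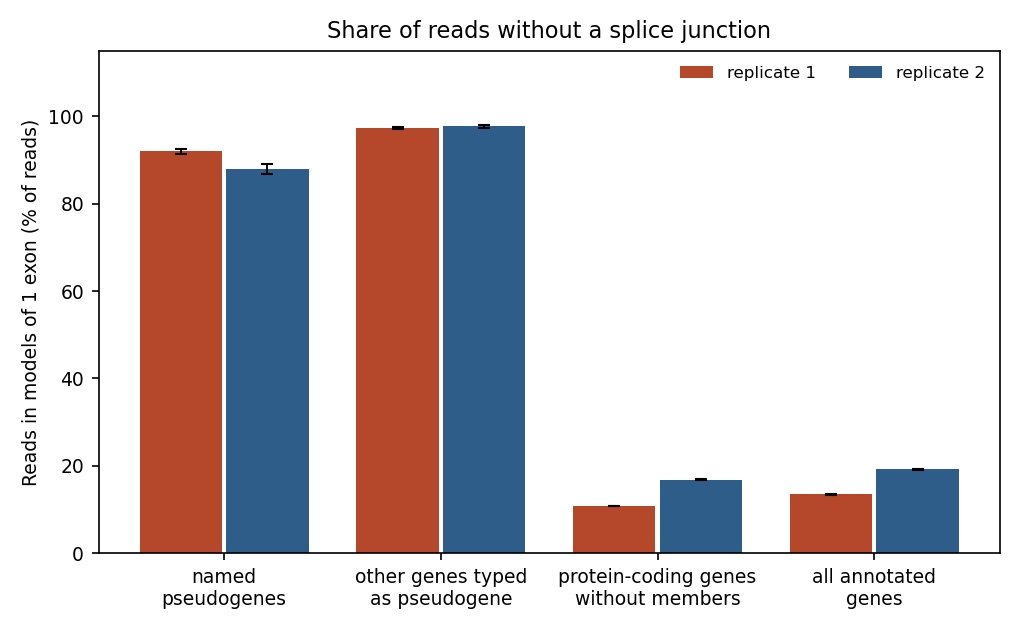
Share of reads in transcript models of 1 exon, in percent, for the named pseudogenes, other genes typed as pseudogene, protein-coding genes outside the named pseudogenes and all annotated genes, with replicate 1 in red, replicate 2 in blue and 95% Wilson intervals as error bars. The named pseudogenes stand at 92.0% and 87.9%, all annotated genes at 13.5% and 19.2%.

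The pipeline's transcript classes put nearly all of the copies' reads in models that match an annotated transcript. Known models held 96.8% of the copies' reads in replicate 1 and 96.4% in replicate 2, against 75.5% and 69.8% for all annotated genes. For other genes typed as pseudogene the Known shares were 97.2% and 97.9%. Incomplete matches to a splice chain (ISM) held 0.892% and 1.06%, unannotated combinations of known splice sites (NIC) 0.609% and 0.736%, and models with an unannotated splice site (NNC) 0.957% and 0.972%. Reads overlapping a gene without matching its splicing, the Genomic class, held 0.729% and 0.795%. ISM, NIC and NNC are defined by splicing, and 147 of the 181 copies are annotated with 1 exon.

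Spliced reads were found for 36 named pseudogenes, in 141 distinct chains of introns, of which 23 chains in 10 genes were read in both libraries. Ndufb1-ps was the most spliced. Its annotated isoform 203, of 3 exons and 861 bp, had 350 reads in replicate 1 and 237 in replicate 2, and isoform 201, of 511 bp, had 63 and 44. Cpsf2, the messenger RNA processing gene on its other strand, had 40 and 9 reads. Ube2d-ps, named for ubiquitin-conjugating enzymes, had 21 and 7 spliced reads, 13 and 2 of them on the annotated isoform 204. Cyp2a21-ps, from a cluster of cytochrome P450 genes, had 11 and 9 spliced reads, with 7 and 8 on 1 unannotated chain of 3 exons. The models of that chain were classed in part as Genomic and in part as NIC. Cyp2a5, the protein-coding gene closest to Cyp2a21-ps in sequence, was at 0 reads in both libraries.

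Cyp21a2-ps (ENSMUSG00000092471.1), the pseudogene beside the adrenal's steroid 21-hydroxylase gene, was spliced in 181 of 181 reads in replicate 1 and 74 of 87 in replicate 2. It lies on chromosome 17 from 34719813 to 34722252, opposite Tnxb. No gene named Cyp21a2 is annotated in the mouse, and the functional gene closest in sequence is Cyp21a1, with 15768 and 5241 reads. Cyp21a2-ps had 1.15 reads for each 100 of Cyp21a1 in replicate 1 and 1.66 in replicate 2. Its annotated model has 9 exons where Cyp21a1 has 10, is 97.5% identical to the Cyp21a1 coding sequence over the aligned 93.9%, and meets a stop codon after 280 of 487 codons.

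The reads of Cyp21a2-ps used 54 intron chains, 11 of which were read in both libraries and held 142 and 59 of its reads. The annotated 9-exon chain had 52 reads in replicate 1 and 29 in replicate 2, an unannotated 8-exon chain 35 and 11, and an 8-exon chain of annotated introns 18 and 5. At the first intron, which takes the place of the second exon of Cyp21a1 shown above, most reads used 1 of 2 ends. An unannotated 3′ end lies 99 bases upstream of the annotated one and was used by 52 of the 139 reads at these 2 ends in replicate 1 (37.4%, Wilson 29.8% to 45.7%) and by 19 of 63 (30.2%, 20.2% to 42.4%) in replicate 2. The other unannotated 3′ ends had at most 3 reads in a library. At the intron from 34720279, an unannotated 5′ end 8 bases upstream was used by 74 of 171 reads (43.3%, 36.1% to 50.8%) and 23 of 70 (32.9%, 23.0% to 44.5%). The intervals of the libraries overlap at both introns.

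The reads of each copy were then set against those of its parent. Parents were annotated for 151 of the 181 copies and had reads for 149. In the 70 pairs with at least 10 reads of each gene and reads in both libraries, over 53 parents, the median ratio of copy to parent reads was 0.163 in replicate 1 and 0.173 in replicate 2, and the pair means ran from 0.00426 to 11.9. The mean ratio was under 0.1 in 24 pairs and at least 1 in 7. Ratios repeated between the libraries within 2-fold in 55 of 70 pairs, and the log2 ratios had a Pearson's r of 0.902 and a Spearman's rho of 0.917 across pairs, which share libraries and in part parents.

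**Figure D3:**
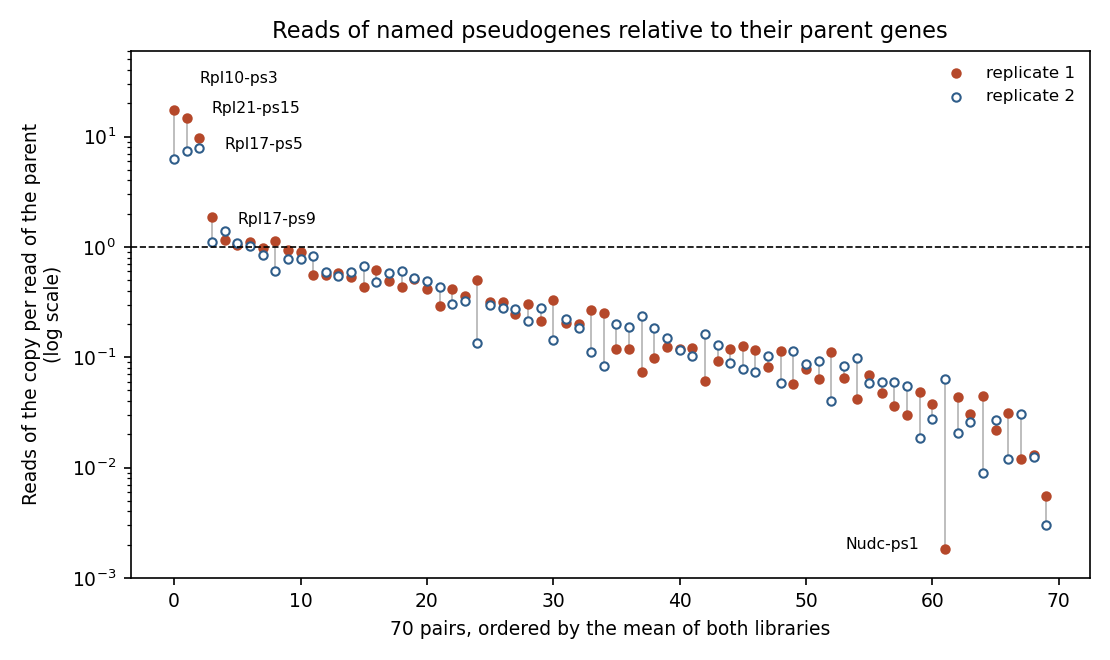
Reads of the named pseudogene per read of its parent gene, on a log axis, for 70 pairs in order of the mean of both libraries, with replicate 1 filled, replicate 2 open and a line at equal reads. Rpl10-ps3, Rpl21-ps15 and Rpl17-ps5 stand apart at the upper end, and Nudc-ps1 shows the widest gap between the libraries.

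The highest ratios belonged to copies of 3 ribosomal protein genes whose own counts were low. Rpl10-ps3 had 612 reads in replicate 1 and 138 in replicate 2, against 35 and 22 for Rpl10, a mean ratio of 11.9 ± 7.93 (SD, n = 2). The annotation types Rpl10-ps3 as protein-coding, as it does Ftl1-ps1. Rpl21-ps15 had 324 and 118, against 22 and 16 for Rpl21, a ratio of 11.1 ± 5.20. Rpl17-ps5 had 155 and 79, against 16 and 10 for Rpl17, a ratio of 8.79 ± 1.26. All 3 copies exceeded their parents in both libraries, and the median of 81 ribosomal protein genes with reads was 466 reads in replicate 1 and 185 in replicate 2, far above these parents. Copies and parent together had 648 and 161 reads for Rpl10, 348 and 134 for Rpl21 and 226 and 112 for Rpl17. The share of the copies in these sums was 94.6% and 86.3% for Rpl10, 93.7% and 88.1% for Rpl21 and 92.9% and 91.1% for Rpl17.

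Another 4 pairs had mean ratios of 1.06 to 1.49. Rps2-ps13 had 463 and 121 reads against 399 and 86 for Rps2 (1.28 ± 0.174), and Rps19-ps6 442 and 260 against 427 and 239 for Rps19 (1.06 ± 0.0373). Rpl35a-ps2 had 174 and 69 reads against 158 and 68 for Rpl35a (1.06 ± 0.0612), and Rpl17-ps9 30 and 11 against the 16 and 10 of Rpl17 (1.49 ± 0.548). Just under equal reads lay Rps13-ps1 at 0.908, Rpl17-ps8 at 0.863 and Ftl1-ps1, whose 2099 and 549 reads stood against 2226 and 708 of Ftl1, at 0.859 ± 0.118.

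**Figure D4:**
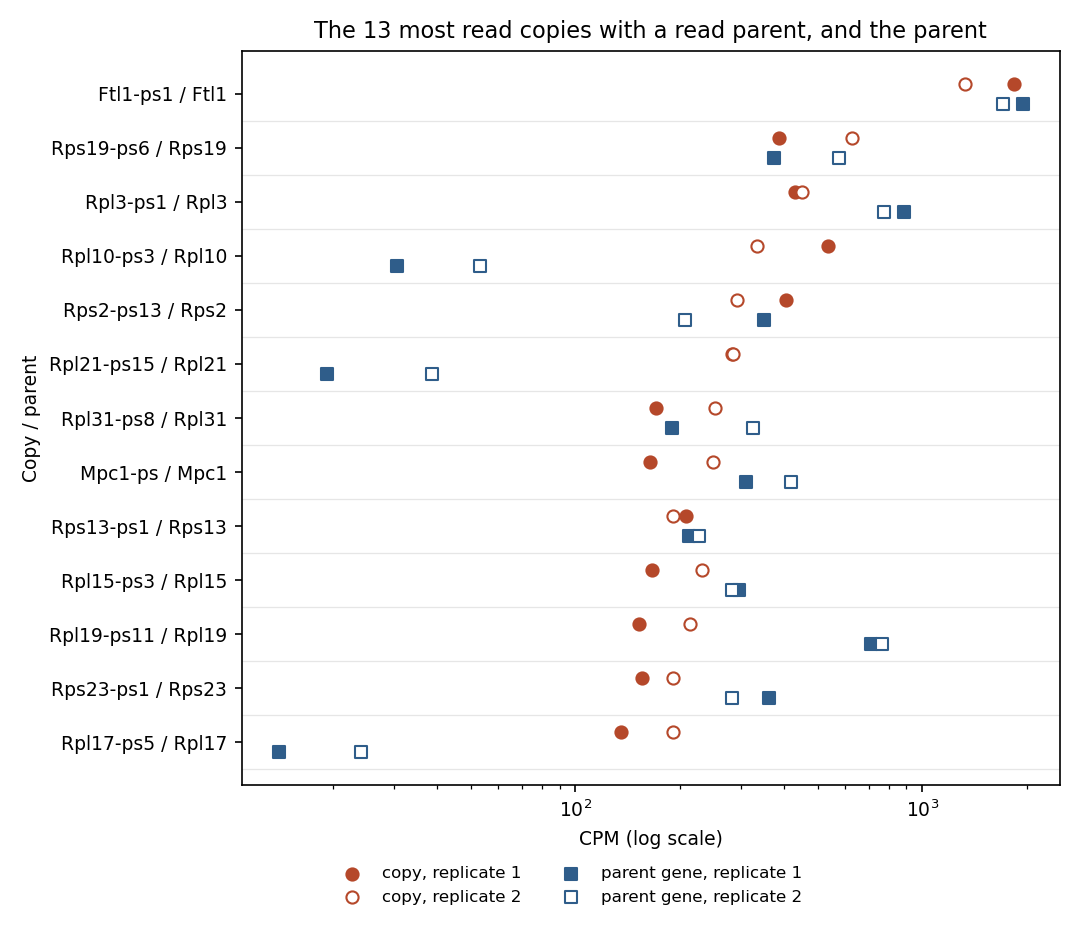
Level in CPM, on a log axis, of the 13 most read copies with a read parent (red circles) and of the parent (blue squares), replicate 1 filled and replicate 2 open. The parents Rpl10, Rpl21 and Rpl17 lie well to the left of their copies, while Ftl1, Rps19 and Rps2 lie beside theirs.

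At the low end, among copies with at least 10 reads in each library, Rps15-ps2 had 15 and 10 reads against 496 and 182 of Rps15 (0.0426 ± 0.0175) and Rps16-ps2 23 and 18 against 632 and 301 of Rps16 (0.0481 ± 0.0166). Rpl23a-ps3 (0.0536), Rpl36-ps12 (0.0739), Rpl38-ps2 (0.0775) and Rps26-ps1 (0.0820) followed. All 6 parents encode ribosomal proteins, as those of the 7 highest pairs do. Rps16-ps2 and Rpl38-ps2 are identical to the coding sequence of the parent, as Rpl10-ps3 is, so full identity went with ratios of 0.0481, 0.0775 and 11.9.

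Some parents had several copies with reads. Rps12 had 10 of 24 annotated copies with reads, led by Rps12-ps3 with 54 reads in replicate 1 and 8 in replicate 2, and together they held 101 and 15 reads against 151 and 25 of Rps12. All 6 copies of Rpl35a had reads, 287 and 114 in all, or 64.5% and 62.6% of the reads of copies and parent together. The 5 read copies of Rps19 among 14 held 446 and 261 reads, all but 4 and 1 of them on Rps19-ps6. The 5 of Rps2 among 11 held 520 and 136, so that in each family 1 copy led.

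For copies whose named parent is not annotated, the closest protein-coding gene was found by sequence, a step chosen after the values had been seen. Eif4a-ps4 was closest to Eif4a1 (99.9% identity), which had 268 and 86 reads, and reached 62.3 and 61.6 reads for each 100 of it. Hsp25-ps1, closest to the small heat shock protein gene Hspb1, had 33 and 7 reads, 20.8 and 20.6 for each 100. Gstp-ps, a copy of a glutathione transferase gene, had 9 and 2 reads and was closest to Gstp2 (99.2% identity). Its ratio was taken to Gstp1, which the search did not pick, and was 2.82 and 1.63 for each 100. Atp5l2-ps had 19 and 0 reads, 2.96 and 0 for each 100 of Atp5l. The ratios of Eif4a-ps4 and Hsp25-ps1 lay closer together in the libraries than those of Gstp-ps and Atp5l2-ps. Across all 181 copies, 174 had a protein-coding gene of similar sequence. The named parent was the closest, or tied for closest, for 148 of 151 copies with an annotated one.

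Processed copies with more reads were closer to their parents. Of 682 processed named pseudogenes in the annotation, 584 could be aligned to the coding sequence of the parent. Median identity was 94.8% in 452 copies without reads, 98.9% in 69 with 1 to 9 reads and 99.7% in 63 with at least 10. By codon count, the reading frame of the parent was kept in 20.1%, 55.1% and 77.8% of these. It counted as kept where an aligned start codon was followed by the parent's number of codons before a stop codon or the model's end. A stop codon ahead of the parent's was met in 185 copies without reads, 18 with 1 to 9 reads and 5 with at least 10. Parents had reads for 437, 69 and 63 of the copies, with medians of 338, 485 and 346 reads in both libraries together, so copies without reads also had read parents. These are counts over copies, many of which share a parent, and were not tested. Among the 70 pairs the ratio of copy to parent followed identity weakly, with a Spearman's rho of 0.245.

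**Figure D5:**
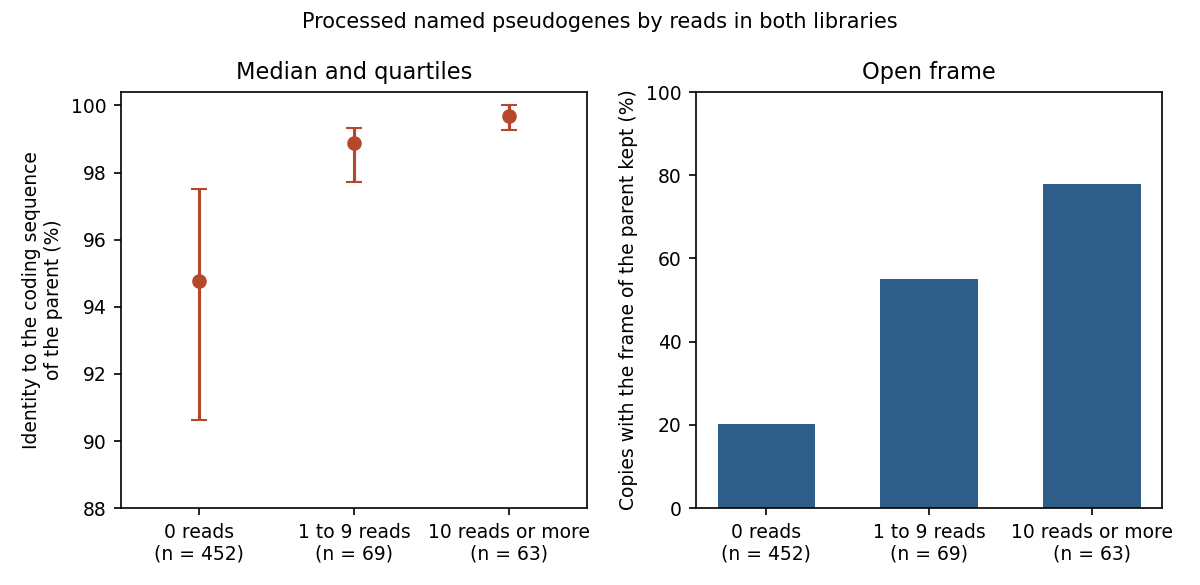
Processed named pseudogenes grouped by their reads in both libraries together. The left panel gives the median identity to the parent's coding sequence in percent with quartiles as bars (the axis starts at 88%). The right panel gives the percent of copies that keep the parent's reading frame by codon count. That is 20.1% without reads and 77.8% with at least 10 reads.

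Both libraries belong to 1 group, so the comparison between them measures repeatability. Each gene's split of reads was set against the scaled library sizes in an exact binomial test, two-sided, adjusted by Benjamini-Hochberg over 9885 genes with at least 10 reads, with a threshold of 0.05. Of 82 named pseudogenes tested, 17 (20.7%) differed, beside 14.0% of all genes tested. Higher in replicate 1 were 5 (6.13% of all genes) and lower 12 (7.86% of all genes), and 65 did not pass. The median log2 ratio of replicate 1 to replicate 2 was −0.09 over the tested copies and 0.01 over all genes tested. When scaled by reads alone these medians were −0.02 and 0.08. Other genes typed as pseudogene passed for 39 of 158 (24.7%). The test sets reads against counting error only and says nothing of mice in general.

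Among the copies higher in replicate 1, Rps27a-ps2, from a gene that encodes ubiquitin fused to a ribosomal protein, had 200 reads against 20 in replicate 2, a log2 ratio of 1.77 (exact binomial test, adjusted p = 3.6e-08). Rps27a itself had 799 and 241 reads (0.19, adjusted p = 0.25 by the same exact test). Atp5l2-ps, closest to a subunit gene of ATP synthase, had 19 reads against 0, at least 2.29-fold higher in CPM against a floor of 3 reads (exact test, adjusted p = 0.047). Rpl10-ps3 (log2 ratio 0.61), Ftl1-ps1 and Rps2-ps13 (both 0.40) completed the 5. Npm3-ps1, with 11 reads against 0, did not pass.

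Among the copies lower in replicate 1, Nudc-ps1, named for a cochaperone of the motor protein dynein, had 1 read against 13, a CPM ratio of 0.0279 with an exact 95% interval of 0.000656 to 0.186 (exact binomial test, adjusted p = 6.2e-06). Pdcd5-ps, a copy of a cell death-associated gene, had 8 reads against 15 (log2 ratio −2.28, exact test, adjusted p = 0.0012). Scp2-ps2, named for a sterol carrier protein, had 36 against 28 (−1.15) and Rpl38-ps2 48 against 37 (−1.14). Ndufb1-ps had 452 against 293 (−0.91, exact test, adjusted p = 2.4e-14), Gpx4-ps2, from a gene that detoxifies lipid peroxides, 81 against 50 (−0.83) and Rps19-ps6 442 against 260 (−0.77). The other 5, Mpc1-ps, Rpl31-ps8, Rpl19-ps11, Rpl17-ps5 and Rpl15-ps3, lay between −0.67 and −0.55. The calls of Rpl15-ps3, Rpl17-ps5 and Rpl19-ps11 were lost when libraries were scaled by reads alone, that of Rps2-ps13 in full-length classes alone and without the Genomic class, and those of Scp2-ps2, Gpx4-ps2, Rpl15-ps3, Rpl17-ps5 and Rpl19-ps11 without a minimum of reads.

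Of the 15 called copies with a tested parent, 7 had a parent called in the same direction, 0 in the other, and 8 a parent that did not pass. Of all genes tested 14.0% were called in either direction, and 26.0% of those tested at a minimum of 50 reads. Rps19-ps6 and Rps19 moved by −0.77 and −0.70, Rpl31-ps8 and Rpl31 by −0.63 and −0.84, and Mpc1-ps and Mpc1 by −0.67 and −0.49. Rpl10-ps3 was at 0.61 and Rpl10 at −0.85, and Rpl15-ps3 at −0.55 and Rpl15 at 0.00, where the parents did not pass. Whether a copy and its parent differ in their change was not tested.

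The libraries also differed in tissue markers. All 7 adrenal cortex markers and all 6 medulla markers had reads in the libraries, with cortex sums of 64044 CPM in replicate 1 and 82294 in replicate 2 and medulla sums of 9957 and 6790. The 4 skeletal muscle markers summed to 822 and 4.82 CPM and the 5 adipocyte markers to 3963 and 6165, while the 2 kidney markers were at 0. The part of these differences in the values of the copies was not tested.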

How the data were processed

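The mouse long-read pipeline of ENCODE was used, per the labels' protocols. The deposited values are counts, whole reads of each transcript model without normalization, made by the authors for each library alone. Exon numbers and lengths come from the same tables per the file headers. Per the accompanying notes the build is mm10 and the annotation GENCODE M21, and TALON is the source named for the models. No source used here gives the aligner, tool versions or filters.

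Reads were summed per gene (Python 3.11.15, pandas 2.3.3), and CPM is reads per 1000000 reads of annotated genes. Total reads were 1223776 in replicate 1 and 453761 in replicate 2, with 2.12% and 3.65% on spike-ins, which were left out. Library sizes for the exact binomial test (scipy 1.17.1) were scaled by TMM (edgeR 4.0.16) with factors of 1.03 and 0.976, and log2 ratios used a pseudocount of 1 CPM. DESeq2 1.42.0 gave alternative size factors. No model with replicates can be fitted between libraries of 1 group. The test was checked on simulated libraries with known changes in some genes. Their reads varied by counting error alone, so the check does not cover other spread between libraries. Closest genes came from BLAST 2.17.0 (blastn, plus strand) against transcripts of protein-coding genes, and copies were aligned to the parent's coding sequence with Biopython 1.88 (affine gaps). Gene families were defined by patterns in parent names.

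Named copies were the 12 highest, those past the test (up to 6 in each direction), ratios of at least 1 and the 6 lowest ratios, spliced copies with at least 5 such reads in each library, copies with at least 20 reads typed as other than pseudogene, copies with at least 10 reads in 1 library and 0 in the other, the 2 highest of each family, and the parents with the most read copies. Others named fill out a group or a ratio and were chosen after their values were seen. The members, lists and rules were chosen with earlier results of these data known.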

Additional observations from a re-analysis of the deposited data

How the results depend on the processing

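Replicate 2 has the lower depth, and 76 copies rest on fewer than 5 reads. At a minimum of 5 reads in each library 63 copies were found in both, against 113 at 1 read, and 130.3 copies would be expected in replicate 1 at the depth of replicate 2. The mean share of reads was 1.01% in full-length classes alone (Known, NIC and NNC), 0.867% without the Genomic class, 0.540% for copies typed as pseudogene and 0.750% per all reads. For copies typed as pseudogene 95.3% of reads were in 1-exon models and 96.2% in Known models, and without the Genomic class 97.4% were Known. The median ratio to the parent was 0.194 in full-length classes, 0.175 without the Genomic class and 0.163 to 0.173 in the single libraries. Against 1-exon reads alone of the parent it was 13.2, with 11 of 15 pairs at 1 or more, since spliced reads of the parent were then left out. The count of copies that differed between the libraries ran from 12 to 17. At a minimum of 50 reads it was 15 of 37 tested, beside 26.0% of all genes tested. Without a minimum of 10 reads it was 12 of 181, beside 7.18% of all genes tested, with 5 copies higher in replicate 1. In that setting the median log2 ratio was 0.22 for the copies and 0.15 for all genes, and Rpl15-ps3, Rpl17-ps5, Rpl19-ps11, Scp2-ps2 and Gpx4-ps2 no longer passed. The first 3 also missed with scaling by reads alone, and Rps2-ps13 in full-length classes and without the Genomic class. Cyp21a2-ps (log2 ratio −0.48, not past the test) passed without the Genomic class (−0.55) and at a minimum of 50 reads (−0.49). Copies that passed in no setting changed sign in 7 repeats: Cyp2a21-ps to 1.47 in full-length classes and 1.42 without the Genomic class, Rps13-ps1 to −0.0019 and −0.014, Ube2d-ps to −0.019 without that class, and Rpl21-ps15 and Rpl17-ps9 to 0.025 and 0.015 without a minimum. The cause of these changes was not tested, and 249 of the repeats for single copies kept direction and call. No paired analysis was possible because both libraries belong to 1 group.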
